A study of Caenorhabditis elegans with 8 samples.

Results

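Sets of sequencing libraries from whole adult Caenorhabditis elegans were compared with one another. The libraries numbered replicates 3 and 4 were set against those numbered replicates 1 and 2, whatever the worms had been fed. Members were chosen by the replicate number in the sample labels alone, so all 8 libraries of the series entered, 4 in each set. Each set held 2 control libraries, whose worms ate bacteria carrying L4440, the vector without insert, and 2 spk-1(RNAi) libraries, whose worms ate bacteria that made spk-1 double-stranded RNA. All worms were of the strain N2, were grown at 20 °C, and were fed from the last larval stage (L4) for 24 h at 25 °C before at least 100 adults per condition were collected. The labels do not say what a replicate number stands for, or whether worms, RNA extraction, library preparation and sequencing were shared within a number, and these cannot be told apart here. Libraries were made from polyadenylated RNA of pooled worms, and a smaller number of cells of a type and less RNA per cell of that type cannot be told apart in them.

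The young adult hermaphrodite is built from a body of somatic cells (muscle, epidermis, intestine, neurons and gonad sheath) around a germline in which stem cells divide, enter meiosis and mature into oocytes one after another. Within the first day of adulthood, sperm production has ended, the intestine makes yolk proteins, eggshell proteins accumulate in oocytes, and the epidermis changes its collagens and antimicrobial peptides. SPK-1 is a kinase that phosphorylates serine- and arginine-rich (SR) splicing factors. The deposited table counts reads that span introns, so a gene's level here is its spliced reads over the introns listed for it. It listed 20324 introns, of which all but 160 lay in 5762 named genes.

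The labels say nothing of cultures behind the replicates, so p-values measure the spread between these libraries, which may be technical. The sets differed in depth as well as in number. The libraries of replicates 1 and 2 held 7938914 and 1821717 junction reads in controls and 4279845 and 2660062 after spk-1(RNAi), and those of replicates 3 and 4 held 47299659 and 28177090 in controls and 40426751 and 29551827 after spk-1(RNAi). Every library of replicates 3 and 4 was therefore deeper than every library of replicates 1 and 2, and depth and set cannot be told apart. With every library thinned to the depth of the shallowest, 2629 of 5699 genes were called. Reads over spk-1 introns, the check of the labels, made up 0.0464% to 0.0628% of junction reads in controls and 0.614%, 6.25%, 0.178% and 0.277% in spk-1(RNAi) replicates 1 to 4. The excess after spk-1(RNAi) sat in introns 6 and 7 of 10. The other 8 introns of spk-1 were lower after spk-1(RNAi) than in the control of the same number for every number, with 50.9 and 7.26 CPM at intron 1 in replicate 1. The source of the reads over introns 6 and 7 was not tested. The table lists only introns with at least 21 reads in every control library. In control replicate 2, the shallowest library, a gene with 21 reads stood at 9.49 CPM (junction reads scaled to library size and by TMM, a correction for differing composition), so genes scarcer than that there could not be listed. A gene beneath 9.49 CPM in replicates 3 and 4 was therefore listed only if it was higher in control replicate 2. A gene beneath that level in control replicate 2 and higher in replicates 3 and 4 could not be listed. The 569 genes with 21 to 29 reads in control replicate 2 had a median log2 fold change of -0.14, and -0.00 without that library. Of 11 neuronal markers measured, 3 were called higher and 1 lower, and the summed level was 924 to 1163 CPM in replicates 1 and 2 and 1043 to 1184 CPM in replicates 3 and 4. Among 61 markers of sperm, only spe-39 was listed, at 105 to 149.2 CPM in replicates 1 and 2 and 103.3 to 130.9 CPM in replicates 3 and 4, and no gene of the major sperm proteins was listed. A gene without introns cannot be listed at any level, so this absence does not show a lack of sperm RNA.

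The set a library belonged to accounted for more of the variation between libraries than the treatment. The first principal component of log2 CPM held 62.2% of the variance and separated the sets, and the second, with 17.1%, separated replicate 1 from replicate 2 in both treatments. Pearson correlations of log2 CPM between libraries, taken over genes that are not independent of one another, were 0.86 to 0.91 between sets, 0.92 to 0.99 within replicates 1 and 2 and 0.97 to 0.99 within replicates 3 and 4. The control and spk-1(RNAi) libraries of the same number deviated together from their group means, with correlations of 0.88, 0.69, 0.71 and 0.75 for replicates 1 to 4. Libraries of different numbers in the same set also correlated, at 0.24 and 0.35 within replicates 1 and 2 and at 0.69 and 0.70 within replicates 3 and 4, so these values hold the set as well as the number. The difference between replicates 1 and 2 in controls correlated with that after spk-1(RNAi) at 0.61, and the difference between replicates 3 and 4 at 0.10.

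**Figure D1:**
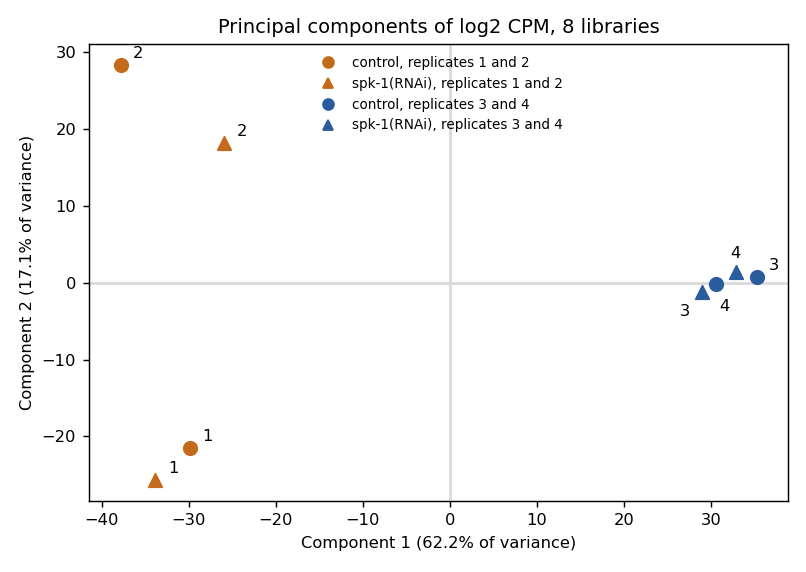
Each point is 1 library, placed by its first and second principal component of log2 CPM over 5762 genes, with its replicate number beside it (orange, replicates 1 and 2, blue, replicates 3 and 4, circles, control, triangles, spk-1(RNAi)). The first component (62.2% of the variance) divides the sets, and the second (17.1%) divides replicate 1 from replicate 2 while the 4 blue points lie together.

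Junction reads of 2899 of 5762 genes, 50.3%, differed between the sets in edgeR's quasi-likelihood test with treatment as a covariate and a Benjamini-Hochberg adjusted p under 0.05. Of these, 1504 (26.1% of the genes tested) were higher in replicates 3 and 4 and 1395 (24.21%) were lower. In 2706 genes, 47%, the 4 CPM values of one set lay wholly above those of the other, and 2517 of these were also called. These shares are the background for each gene group that follows. If the number pairs the libraries, the comparison rests on 4 numbers rather than on 8 independent libraries. With the reads of both libraries of a number summed, 2 against 2, 1826 genes (31.7%) were called, 1059 (18.4%) higher and 767 (13.3%) lower, and 1822 of them were among the 2899. The control libraries alone gave 1613 genes (28%) and the spk-1(RNAi) libraries alone 1036 (18%), each in a fit of 2 libraries against 2. Of these, 836 were called in both, 51.8% of the first list and 80.7% of the second, and all 836 had the same direction in both.

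Genes of body-wall and pharyngeal muscle had the highest median change of all lists and were higher in replicates 3 and 4 where they passed the test. Of 29 measured members, 18 were higher, 0 were lower and 11 were not called, with a median log2 fold change of 1.17, beside -0.06 over all genes. Their summed level was 9415 to 17338 CPM in replicates 1 and 2 and 23963 to 25631 CPM in replicates 3 and 4. lev-11, which encodes tropomyosin, the protein that lies along actin filaments and gates myosin binding, had 471 and 299 CPM in controls and 508 and 784 CPM after spk-1(RNAi) in replicates 1 and 2. Its levels in replicates 3 and 4 were 2359 and 2301 CPM in controls and 2399.9 and 2375 CPM after spk-1(RNAi). Its values in replicates 3 and 4 lay within a narrow band above all 4 values of the other set, and within replicates 1 and 2 the spk-1(RNAi) library of replicate 2 was highest. It was higher by a log2 fold change of 2.24 (with SE 0.23 and adjusted p = 6.34e-05) in edgeR, and over each of its 8 listed introns. act-4, one of the near-identical actin genes, whose reads could be split among copies, had 468 and 366 CPM in controls and 537 and 847 CPM after spk-1(RNAi) in replicates 1 and 2. Replicates 3 and 4 held 2366 and 2527 CPM in controls and 2504 and 2619.6 CPM after spk-1(RNAi) (log2 fold change 2.22 with SE 0.22, adjusted p = 4.71e-05 in edgeR). The first and second listed introns of act-4 have almost the same position and reads, so its total may count the same reads more than once. They differed by 3.12 each and its other introns by 1.23 and 0.92. The myosin heavy chain of body-wall muscle, unc-54, had 216 to 525 CPM in replicates 1 and 2 and 936 to 1071 CPM in replicates 3 and 4 (log2 fold change 1.51 with SE 0.21, adjusted p = 0.000303 in edgeR), and paramyosin, the core protein of the thick filament encoded by unc-15, had 234 to 519.7 CPM in replicates 1 and 2 and 970.3 to 1077 CPM in replicates 3 and 4 (log2 fold change 1.42 with SE 0.19, adjusted p = 0.000243 in edgeR). Both genes kept the sets apart, with no value shared between their ranges. Troponins, which confer calcium control on the thin filament, were higher too. These were tni-3 and unc-27 (troponin I), mup-2 and tnt-2 (troponin T), with log2 fold changes of 2.16, 1.89, 1.92 and 1.68. Myosin light chains followed, with log2 fold changes of 1.88 for mlc-1, 1.18 for mlc-2 and 1.78 for mlc-3. The attachment protein genes deb-1 (vinculin) and atn-1 (alpha-actinin) were not called. They had log2 fold changes of -1.61 and -0.29, with adjusted p of 0.0684 and 0.413 in edgeR. The member with the highest mean CPM, the actin gene act-2, had 1345 to 2174 CPM in replicates 1 and 2 and 1915 to 2405 CPM in replicates 3 and 4 (log2 fold change 0.38 with SE 0.19, adjusted p = 0.127 in edgeR), and its sets overlapped.

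**Figure D2:**
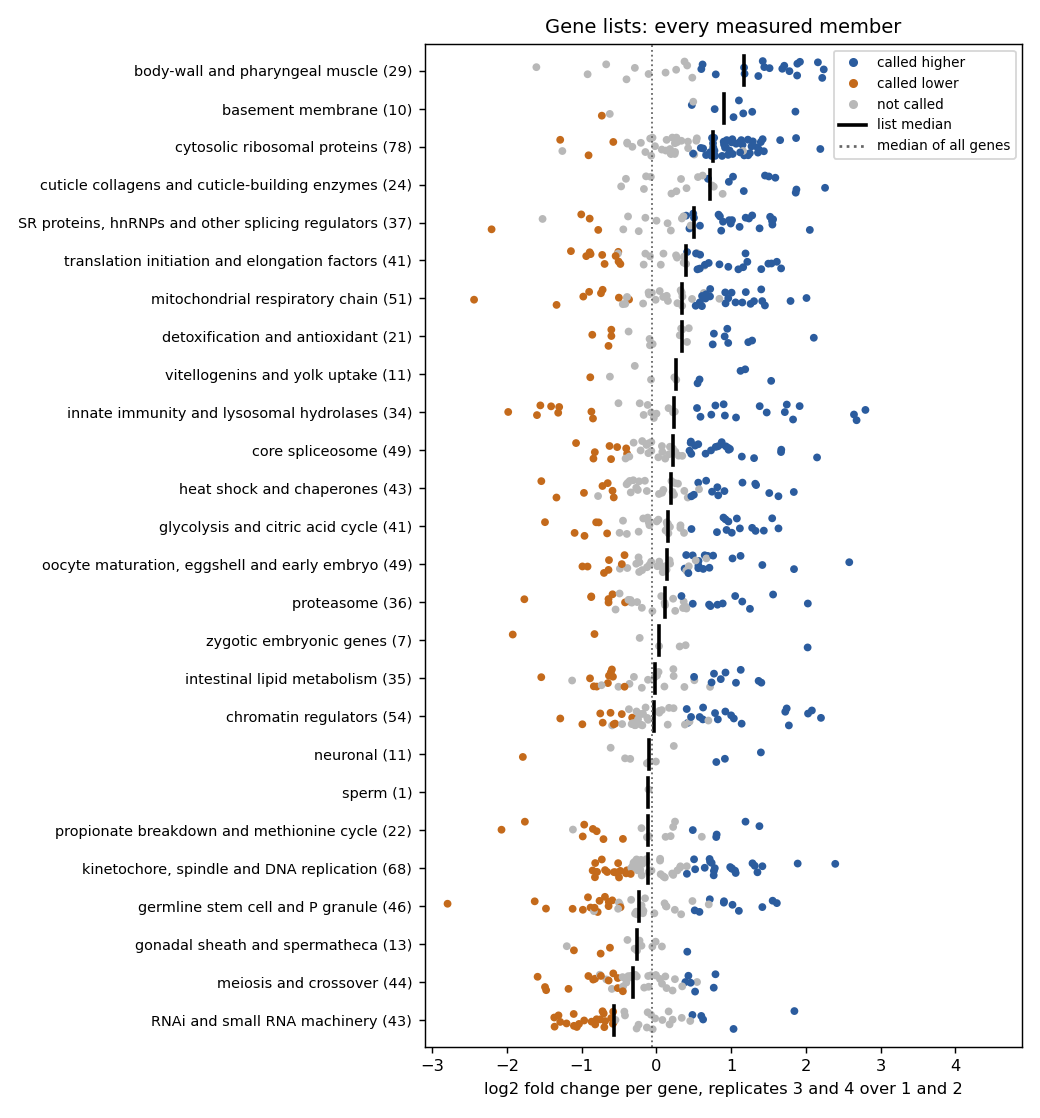
Each point is a measured gene of the list named at the left (members in parentheses), placed by its log2 fold change of replicates 3 and 4 over 1 and 2 (blue, called higher, orange, called lower, grey, not called in edgeR at an adjusted p of 0.05). Black bars are list medians and the dotted line is the median of all genes, -0.06. Muscle stands at the top with a median of 1.17 and the RNAi machinery at the bottom with -0.57.

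Extracellular matrix genes that passed the test were higher in replicates 3 and 4, but for 1 basement membrane gene. Among cuticle collagens and the enzymes that fold and modify them, 10 of 24 measured were higher, 0 were lower and 14 were not called, with a median of 0.72. The collagen with the largest change, col-143, had 189.8 and 175.7 CPM in controls and 238 and 543 CPM after spk-1(RNAi) in replicates 1 and 2. The same gene in replicates 3 and 4 had 1322 and 1138 CPM in controls and 1231 and 1426 CPM after spk-1(RNAi) (log2 fold change 2.26 with SE 0.29, adjusted p = 0.000165 in edgeR). All values of replicates 3 and 4 were above 1000 CPM, and the spk-1(RNAi) library of replicate 2 stood highest in the other set. pdi-2, the disulfide isomerase that serves as a subunit of collagen prolyl hydroxylase, had 203 to 409 CPM in replicates 1 and 2 and 864 to 1061 CPM in replicates 3 and 4 (log2 fold change 1.87 with SE 0.21, adjusted p = 9.07e-05 in edgeR). The collagen with the highest mean level, col-122, had 569 to 1396 CPM in replicates 1 and 2 and 849 to 1199 CPM in replicates 3 and 4, with overlapping sets and no call (log2 fold change 0.20 with SE 0.23, adjusted p = 0.491 in edgeR). Without replicate 1 of both treatments the median of the list was 0.18, with 8 members higher and 2 lower, and without replicate 2 of both it was 1.29, with 18 higher and 0 lower. The summed level of the list overlapped between the sets, with 3972 to 10241 CPM in replicates 1 and 2 and 9195 to 10650 CPM in replicates 3 and 4. The list held no gene with 4 or more listed introns.

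Of 10 basement membrane genes measured, 7 were higher and 1 was lower, with a median of 0.91. The collagen IV chain let-2 had 121.98 to 244 CPM in replicates 1 and 2 and 398 to 527 CPM in replicates 3 and 4 (log2 fold change 1.28 with SE 0.19, adjusted p = 0.00037 in edgeR), and ost-1, the worm's SPARC, a collagen-binding matrix protein, had 154.97 to 336 CPM in replicates 1 and 2 and 556 to 657 CPM in replicates 3 and 4 (log2 fold change 1.16 with SE 0.19, adjusted p = 0.000729 in edgeR). Neither gene overlapped between sets. The partner chain of let-2, emb-9, had a smaller change (log2 fold change 0.47 with SE 0.17, adjusted p = 0.0402 in edgeR), and its sets overlapped. nid-1 (nidogen), which links laminin and collagen IV networks, was the member that was lower (log2 fold change -0.73 with SE 0.25, adjusted p = 0.0325 in edgeR). Its call rests on levels of 8.56 to 20.3 CPM and was not made on reads summed by number (adjusted p = 0.14 in edgeR). The range of the summed level was 450 to 778 CPM in replicates 1 and 2 and 1197 to 1481 CPM in replicates 3 and 4.

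Immune effectors moved both ways. Of 34 measured genes of innate immunity and lysosomal hydrolysis, 16 (47.1%) were higher, 8 (23.5%) were lower and 10 were not called, with a median of 0.23. Over all genes, 26.1% were higher and 24.21% lower, so the share called lower was near that of all genes. The small antimicrobial peptides made in the epidermis, the nlp and cnc peptides, were all on the higher side. nlp-27, nlp-28, nlp-29, nlp-31, nlp-33, cnc-2 and cnc-4 had log2 fold changes of 2.68, 1.92, 1.72, 1.83, 2.64, 1.74 and 2.80, all called. nlp-27 had 58.7 and 69.1 CPM in control replicates 1 and 2, 67.1 and 157.5 CPM in spk-1(RNAi) replicates 1 and 2, 551 and 453 CPM in control replicates 3 and 4 and 537 and 626 CPM in spk-1(RNAi) replicates 3 and 4 (log2 fold change 2.68 with SE 0.26, adjusted p = 4.62e-05 in edgeR), and cnc-4 had 11.9 and 14.9 CPM in controls and 9.68 and 12.9 CPM after spk-1(RNAi) in replicates 1 and 2. Values in replicates 3 and 4 were 71.2 and 98.8 CPM in controls and 69.7 and 97.3 CPM after spk-1(RNAi) (log2 fold change 2.80 with SE 0.21, adjusted p = 2.25e-05 in edgeR). In nlp-27 the spk-1(RNAi) library of replicate 2 was again the highest of its set, whereas the 4 libraries of cnc-4 in replicates 1 and 2 were close. These peptide genes have 1 listed intron each and were singled out after their values were seen. The intestinal lysozymes went the other way. lys-7, lys-2, lys-4 and lys-1 had log2 fold changes of -1.98, -1.41, -1.302 and -0.85, all called lower. lys-7 had 38.2 and 16.7 CPM in controls and 37.3 and 43.2 CPM after spk-1(RNAi) in replicates 1 and 2. Across replicates 3 and 4 it had 8.49 and 8.33 CPM in controls and 7.77 and 9.44 CPM after spk-1(RNAi) (log2 fold change -1.98 with SE 0.28, adjusted p = 0.000285 in edgeR). A gene with levels that low in control replicate 2 could not be listed. ilys-5, a lysozyme of the invertebrate type, was higher, with 1054 to 1709.9 CPM in replicates 1 and 2 and 2215 to 3222 CPM in replicates 3 and 4 (log2 fold change 0.90 with SE 0.20, adjusted p = 0.0033 in edgeR). The intestinal cathepsin B gene cpr-5 was higher and cpr-4 was lower, with log2 fold changes of 1.48 and -1.32.

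Eggshell and yolk genes were higher where they changed most. In the list for oocyte maturation, eggshell and early embryo, 18 of 49 measured genes were higher and 7 were lower, 36.7% and 14.3%, with a median of 0.13. On reads summed by number, 6 of the 49 were higher and 2 lower, beside 18.4% and 13.3% of all genes. perm-2 and perm-4, which encode parts of the permeability barrier of the eggshell, led it. perm-2 had 1326 and 1614 CPM in controls and 1488 and 3058 CPM after spk-1(RNAi) in replicates 1 and 2, and 12514 and 9377 CPM in controls and 11549.7 and 10314 CPM after spk-1(RNAi) in replicates 3 and 4 (log2 fold change 2.58 with SE 0.27, adjusted p = 5.81e-05 in edgeR), and perm-4 had 922 to 1925 CPM in replicates 1 and 2 and 4888 to 6166 CPM in replicates 3 and 4 (log2 fold change 1.84 with SE 0.23, adjusted p = 0.000148 in edgeR). The chitin-binding eggshell proteoglycan cpg-2 had 1160.2 to 1813 CPM in replicates 1 and 2 and 2955 to 3294 CPM in replicates 3 and 4 (log2 fold change 1.02 with SE 0.18, adjusted p = 0.0012 in edgeR). For all 3 genes no value of one set reached the other. The summed level of the list was 21973 to 27097 CPM in replicates 1 and 2 and 40763 to 47153 CPM in replicates 3 and 4. Cell fate regulators of the early embryo split. mex-3, an RNA-binding repressor of translation, was higher (299.5 to 458 CPM in replicates 1 and 2 and 986 to 1169 CPM in replicates 3 and 4, log2 fold change 1.42 with SE 0.17, adjusted p = 0.000148 in edgeR), and spn-4, an RNA-binding protein needed for embryonic fate, was lower (1139 to 1516 CPM in replicates 1 and 2 and 521 to 734 CPM in replicates 3 and 4, log2 fold change -0.99 with SE 0.17, adjusted p = 0.000817 in edgeR). oma-1 and oma-2, whose proteins drive oocyte maturation, had log2 fold changes of -0.19 and -0.27 and were not called.

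Of the vitellogenins, which the intestine secretes as yolk and oocytes take up, vit-6 and vit-5 were higher. vit-6 had 11090.4 and 8068 CPM in controls and 10915 and 10853 CPM after spk-1(RNAi) in replicates 1 and 2, and 24326 and 20579 CPM in controls and 25259 and 22969.8 CPM after spk-1(RNAi) in replicates 3 and 4 (log2 fold change 1.19 with SE 0.18, adjusted p = 0.000487 in edgeR), and vit-5 had 7809.7 to 10107 CPM in replicates 1 and 2 and 17866 to 23436 CPM in replicates 3 and 4 (log2 fold change 1.13 with SE 0.17, adjusted p = 0.000496 in edgeR). Control replicate 2 was lowest of all for both. vit-3 and vit-4, near-identical copies that can share reads, had log2 fold changes of 0.58 and 0.55. vit-2 did not pass the test (log2 fold change 0.27 with SE 0.17, adjusted p = 0.22 in edgeR) and vit-1 had a log2 fold change of -0.29 (adjusted p = 0.13 in edgeR). In the list for vitellogenins and yolk uptake, 5 of 11 measured genes were higher and 1 was lower. The lower one was rme-8, an endosomal protein of the yolk uptake route, which had 378 and 328 CPM in controls and 405 and 208 CPM after spk-1(RNAi) in replicates 1 and 2. In replicates 3 and 4 it had 153.6 and 176.9 CPM in controls and 204 and 181.1 CPM after spk-1(RNAi) (log2 fold change -0.89 with SE 0.20, adjusted p = 0.00452 in edgeR). The yolk receptor of the oocyte, rme-2, had 909 to 1110.0 CPM in replicates 1 and 2 and 897 to 1083 CPM in replicates 3 and 4, with overlapping sets and a log2 fold change of -0.07. unc-62, the homeodomain factor that activates vitellogenin genes, was higher (log2 fold change 1.54 with SE 0.31, adjusted p = 0.00216 in edgeR), on levels of 3.70 to 20.3 CPM.

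The lists for germline stem cells and P granules and for meiosis leaned lower, with exceptions in each. Among germline stem cell and P granule genes, 15 of 46 (32.6%) were lower and 10 (21.7%) were higher, with a median of -0.23. Over all genes these shares were 24.21% and 26.1%. On reads summed by number, 11 were lower and 7 higher, beside 13.3% and 18.4% of all genes. The largest change was in pgl-2, a P granule component, which had 49.9 and 77.7 CPM in controls and 55.4 and 50.3 CPM after spk-1(RNAi) in replicates 1 and 2. Its levels in replicates 3 and 4 were 6.83 and 8.91 CPM in controls and 9.34 and 8.25 CPM after spk-1(RNAi) (log2 fold change -2.80 with SE 0.22, adjusted p = 2.33e-05 in edgeR). All 4 libraries of replicates 3 and 4 were under 10 CPM and all 4 of the other set were near 50 CPM or above. A gene as low in control replicate 2 as pgl-2 was in replicates 3 and 4 could not be listed. fog-2 and fbf-1, which act in the choice between sperm and oocyte and in stem cell maintenance, were lower, with log2 fold changes of -1.63 and -1.12. fbf-2, a near-identical copy of fbf-1, had a log2 fold change of -1.48. sygl-1, the target of Notch signalling that keeps stem cells undifferentiated, was higher (40.7 to 93.05 CPM in replicates 1 and 2 and 206 to 242 CPM in replicates 3 and 4, log2 fold change 1.56 with SE 0.22, adjusted p = 0.000315 in edgeR). The translation initiation factor eIF4E homologue ife-1, bound to P granules, was higher by 1.61 on the log2 scale. Both VASA helicase genes glh-1 and glh-2 were higher, with log2 fold changes of 1.02 and 1.103, whereas car-1, the member with the highest mean level, had 540.3 to 1503 CPM in replicates 1 and 2 and 1588 to 1807 CPM in replicates 3 and 4 and missed the threshold (adjusted p = 0.0567 in edgeR).

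Among meiosis and crossover genes, 13 of 44 (29.5%) were lower, 6 (13.6%) were higher and 25 were not called, with a median of -0.31. Over all genes, 24.21% were lower and 26.1% higher. On reads summed by number, 6 of the 44 were lower and 2 higher, beside 13.3% and 18.4% of all genes. The share called lower was then near that of all genes. The crossover factors msh-5 and cosa-1, which act together at designated crossover sites, were lower. msh-5 had 42.4 and 77.3 CPM in controls and 43.9 and 38.8 CPM after spk-1(RNAi) in replicates 1 and 2, and 13.3 and 14.9 CPM in controls and 22.9 and 15.4 CPM after spk-1(RNAi) in replicates 3 and 4 (log2 fold change -1.59 with SE 0.27, adjusted p = 0.000907 in edgeR), and cosa-1 had 37.3 to 122.9 CPM in replicates 1 and 2 and 17.1 to 30.8 CPM in replicates 3 and 4 (log2 fold change -1.49 with SE 0.29, adjusted p = 0.00183 in edgeR). Control replicate 2 was highest for both genes. prom-1, needed for chromosome pairing, had 112.03 and 94.4 CPM in controls and 130.01 and 93.9 CPM after spk-1(RNAi) in replicates 1 and 2. Replicates 3 and 4 held 33.96 and 40.2 CPM in controls and 42.7 and 38.3 CPM after spk-1(RNAi) (log2 fold change -1.48 with SE 0.16, adjusted p = 6.57e-05 in edgeR). It was lower over each of its 6 introns, and its sets were far apart. The recombinase rad-51 went against the list (48.8 to 65.4 CPM in replicates 1 and 2 and 97.7 to 113.8 CPM in replicates 3 and 4, log2 fold change 0.79 with SE 0.14, adjusted p = 0.000973 in edgeR). The cohesin subunit smc-3, the member with the highest mean level, had 250.3 to 366 CPM in replicates 1 and 2 and 227 to 298 CPM in replicates 3 and 4, overlapping between sets. In the list for kinetochore, spindle and DNA replication, 21 of 68 genes (30.9%) were higher and 16 (23.5%) were lower, and on summed reads 15 and 6. Small subunits of complexes lay at its top, with log2 fold changes of 2.39 for csc-1 of the chromosomal passenger complex and 1.89 for rpa-2 of the replication protein A complex. The Aurora kinase air-1 was lowest (log2 fold change -0.85 with SE 0.16, adjusted p = 0.00152 in edgeR). Gonadal sheath and spermatheca genes had 1 higher and 3 lower of 13, and zygotic embryonic genes 1 higher and 2 lower of 7.

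The RNAi and small RNA machinery was the list with the lowest median, -0.57. Of 43 measured genes, 22 were lower, 5 were higher and 16 were not called, and the shares called, 51.2% lower and 11.6% higher, stand beside 24.21% and 26.1% over all genes. Argonautes, the proteins that carry small RNAs to their targets, were among the lower genes. hrde-1, an Argonaute of inherited germline silencing, had 739.8 and 830.4 CPM in controls and 856 and 801 CPM after spk-1(RNAi) in replicates 1 and 2. The same gene in replicates 3 and 4 had 349.6 and 340.2 CPM in controls and 426 and 387 CPM after spk-1(RNAi) (log2 fold change -1.11 with SE 0.14, adjusted p = 0.000156 in edgeR). csr-1, an Argonaute that licenses germline transcripts, had 736 and 498 CPM in controls and 645 and 428 CPM after spk-1(RNAi) in replicates 1 and 2. Values in replicates 3 and 4 were 271 and 275 CPM in controls and 320.3 and 258 CPM after spk-1(RNAi) (log2 fold change -1.04 with SE 0.19, adjusted p = 0.00123 in edgeR). In both genes every library of replicates 3 and 4 lay under every library of replicates 1 and 2. sago-1, sago-2 and ppw-1, Argonautes of secondary small RNAs, had log2 fold changes of -1.36, -0.97 and -1.29. The RNA-dependent RNA polymerases rrf-3, rrf-1 and ego-1, which copy target RNA into small RNA precursors, had -1.31, -1.105 and -0.57 on the same scale. dcr-1 (Dicer), the nuclease that cuts double-stranded RNA, had 280.2 to 342 CPM in replicates 1 and 2 and 173.8 to 216 CPM in replicates 3 and 4 (log2 fold change -0.72 with SE 0.14, adjusted p = 0.00154 in edgeR), and its helicase partner drh-1 had 73.9 to 133.3 CPM in replicates 1 and 2 and 39.3 to 47.5 CPM in replicates 3 and 4 (log2 fold change -1.203 with SE 0.18, adjusted p = 0.000377 in edgeR). rde-10, needed for secondary small RNAs, was lowest of all (log2 fold change -1.37 with SE 0.23, adjusted p = 0.00075 in edgeR). Against the list, vig-1, a component of the microRNA effector complex, had 1055 and 653 CPM in controls and 771 and 619.5 CPM after spk-1(RNAi) in replicates 1 and 2. Across replicates 3 and 4 it had 2912 and 3256 CPM in controls and 2326 and 2663 CPM after spk-1(RNAi) (log2 fold change 1.85 with SE 0.19, adjusted p = 6.45e-05 in edgeR). The microRNA Argonaute alg-2 was higher as well (log2 fold change 1.03 with SE 0.30, adjusted p = 0.0149 in edgeR). On reads summed by number, 16 members were lower and 2 higher. The list's median was -0.49 in controls alone and -0.53 after spk-1(RNAi) alone. Its summed level was 6684 to 8233 CPM in replicates 1 and 2 and 7967 to 8567 CPM in replicates 3 and 4. The sum, in which vig-1 had the highest mean level, was thus not lower in replicates 3 and 4.

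**Figure D3:**
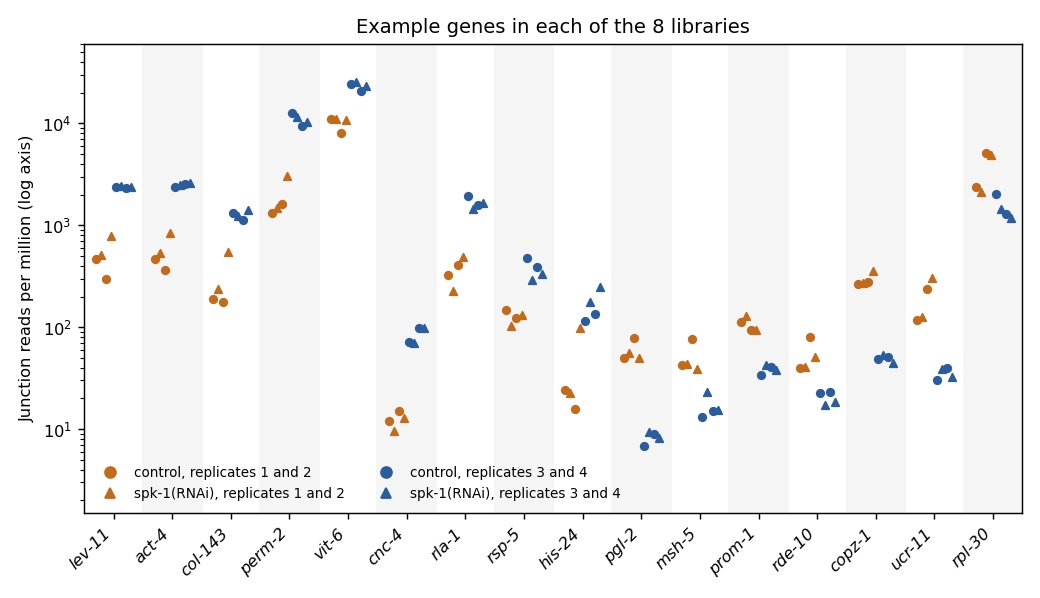
CPM (log axis, scaled by TMM) of 16 example genes in each of the 8 libraries (orange, replicates 1 and 2, blue, replicates 3 and 4, circles, control, triangles, spk-1(RNAi)). In none of these genes do the orange and blue points overlap in height. lev-11 rests between 299 and 784 CPM in orange and between 2301 and 2400 CPM in blue, and pgl-2 between 49.9 and 77.7 CPM in orange and between 6.83 and 9.34 CPM in blue.

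Cytosolic ribosomal protein genes were mostly higher in replicates 3 and 4. Of 78 measured, 45 were higher and 3 were lower, with a median of 0.76. Of their listed introns, 84.5% had a higher mean in replicates 3 and 4, beside 44.96% of the introns of all genes. Together they held 119784 to 175816 CPM in replicates 1 and 2 and 203046 to 252267 CPM in replicates 3 and 4. rla-1, an acidic protein of the ribosomal stalk, had 329 and 406 CPM in controls and 226 and 488 CPM after spk-1(RNAi) in replicates 1 and 2. In replicates 3 and 4 it had 1951 and 1587 CPM in controls and 1432 and 1665 CPM after spk-1(RNAi) (log2 fold change 2.19 with SE 0.24, adjusted p = 7.23e-05 in edgeR). rpl-30 opposed the list, with 2379 and 5113 CPM in controls and 2099 and 4868 CPM after spk-1(RNAi) in replicates 1 and 2. Its levels in replicates 3 and 4 were 2036 and 1293 CPM in controls and 1446 and 1179.7 CPM after spk-1(RNAi) (log2 fold change -1.29 with SE 0.31, adjusted p = 0.00565 in edgeR). For rpl-30 the replicate 2 libraries of both treatments were well above those of replicate 1. The copies rpl-41.1 and rpl-41.2 are near-identical neighbours and their values are uncertain. rpl-41.2, the member with the highest mean level, had 3874 to 11882 CPM in replicates 1 and 2 and 4856 to 8601 CPM in replicates 3 and 4 with overlapping sets. Translation factors had 18 higher and 10 lower of 41, 43.9% and 24.4%, with a median of 0.40. The share called lower was near the 24.21% of all genes. The elongation factor eEF1A gene eef-1A.1 had 2532 to 5953 CPM in replicates 1 and 2 and 9098 to 11091 CPM in replicates 3 and 4 (log2 fold change 1.16 with SE 0.26, adjusted p = 0.00377 in edgeR). Subunits of initiation factor eIF3 were among the lower genes, with log2 fold changes of -0.94 for eif-3.H, -0.89 for eif-3.L and -0.88 for eif-3.E, and -1.14 for clu-1.

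Short transcripts leaned higher and long ones lower. Over genes whose longest annotated transcript was up to 500 nt, the median log2 fold change was 0.24 (334 genes, 37.1% higher and 23.1% lower), and over those above 5000 nt it was -0.27 (189 genes, 18% higher and 29.6% lower). The median transcript was 538 nt among ribosomal protein genes, 856 nt in the respiratory chain and 3055 nt in the RNAi machinery, beside 1491 nt over all genes. Basement membrane genes, with a median of 5663 nt, and muscle genes, with 1558 nt, did not follow this order. The part of transcript length in the results was not tested.

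Genes of energy metabolism changed in both directions. Over all genes, 26.1% were higher and 24.21% were lower. In the mitochondrial respiratory chain, 22 of 51 genes (43.1%) were higher and 8 (15.7%) were lower, with a median of 0.35. cox-17, the copper chaperone of cytochrome c oxidase, had 13.1 and 14.5 CPM in controls and 9.88 and 15.2 CPM after spk-1(RNAi) in replicates 1 and 2, and 60.8 and 72.1 CPM in controls and 33.4 and 48 CPM after spk-1(RNAi) in replicates 3 and 4 (log2 fold change 2.01 with SE 0.23, adjusted p = 9.71e-05 in edgeR), and ant-1.1, the adenine nucleotide carrier, had 2797 to 3288 CPM in replicates 1 and 2 and 5256 to 6247 CPM in replicates 3 and 4 (log2 fold change 0.93 with SE 0.16, adjusted p = 0.00101 in edgeR). Within complex III, ucr-11 was the lowest member, with 117.9 and 236 CPM in controls and 126.4 and 301 CPM after spk-1(RNAi) in replicates 1 and 2. Replicates 3 and 4 held 30.7 and 40.04 CPM in controls and 39.3 and 32.2 CPM after spk-1(RNAi) (log2 fold change -2.44 with SE 0.29, adjusted p = 0.000123 in edgeR). Its replicate 2 libraries were above those of replicate 1, and all 4 values of replicates 3 and 4 were near 35 CPM. In glycolysis and the citric acid cycle, 14 of 41 genes (34.1%) were higher and 6 (14.6%) were lower. The list was led by mdh-2, the mitochondrial malate dehydrogenase (177.6 to 313 CPM in replicates 1 and 2 and 778 to 901 CPM in replicates 3 and 4, log2 fold change 1.63 with SE 0.19, adjusted p = 0.000116 in edgeR). In propionate breakdown and the methionine cycle, 8 of 22 (36.4%) were lower and 5 (22.7%) were higher. acdh-1, the acyl-CoA dehydrogenase of the vitamin B12-independent propionate shunt, had 656 and 453 CPM in controls and 435 and 266 CPM after spk-1(RNAi) in replicates 1 and 2. The same gene in replicates 3 and 4 had 178.2 and 268 CPM in controls and 39.5 and 112.3 CPM after spk-1(RNAi) (log2 fold change -1.76 with SE 0.34, adjusted p = 0.00168 in edgeR). Its sets overlapped, since the spk-1(RNAi) library of replicate 2 lay beneath control replicate 4, and within each number the spk-1(RNAi) library was the lower one. pcca-1, of the B12-dependent route, was higher (82.7 to 151.9 CPM in replicates 1 and 2 and 295 to 372 CPM in replicates 3 and 4, log2 fold change 1.38 with SE 0.18, adjusted p = 0.000172 in edgeR). Intestinal lipid genes had 9 higher and 10 lower of 35, 25.7% and 28.6%, with a median of -0.02. These shares were near those of all genes, so the following members do not stand for the list. The fatty acid elongase elo-2 had 59.2 to 71.4 CPM in replicates 1 and 2 and 18.5 to 25.3 CPM in replicates 3 and 4 (log2 fold change -1.54 with SE 0.17, adjusted p = 8.96e-05 in edgeR), and the desaturase fat-5 was higher (log2 fold change 1.404 with SE 0.25, adjusted p = 0.00118 in edgeR).

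Proteostasis and detoxification genes changed in both directions. Chaperones had 14 higher and 7 lower of 43, 32.6% and 16.3%. sip-1, a small heat shock protein of oocytes and embryos, had 1234 and 534 CPM in controls and 1130.4 and 1167 CPM after spk-1(RNAi) in replicates 1 and 2, and 4552 and 3104 CPM in controls and 3711 and 3089 CPM after spk-1(RNAi) in replicates 3 and 4 (log2 fold change 1.84 with SE 0.27, adjusted p = 0.000387 in edgeR), with control replicate 2 the lowest library. hsp-90, the cytosolic chaperone of kinases and receptors, had 1529.6 to 2554 CPM in replicates 1 and 2 and 866 to 1207 CPM in replicates 3 and 4 (log2 fold change -0.97 with SE 0.22, adjusted p = 0.0043 in edgeR). The heat-inducible hsp-16.1, which has near-identical copies and is uncertain for that reason, had 72.8 and 9.49 CPM in controls and 45.96 and 11.5 CPM after spk-1(RNAi) in replicates 1 and 2. Values in replicates 3 and 4 were 82.8 and 113.1 CPM in controls and 57.4 and 161.5 CPM after spk-1(RNAi). Its sets overlapped, replicate 2 stood beneath replicate 1, and its call (log2 fold change 1.51 with SE 0.54, adjusted p = 0.037 in edgeR) was lost on reads summed by number (adjusted p = 0.112 in edgeR). Proteasome genes had 11 higher and 7 lower of 36, 30.6% and 19.4%, shares near those of all genes. The core subunit pbs-1 had 106.6 to 140.9 CPM in replicates 1 and 2 and 481 to 595 CPM in replicates 3 and 4 (log2 fold change 2.03 with SE 0.16, adjusted p = 2.32e-05 in edgeR), and the lid subunit rpn-6.2 had 12.9 to 53.8 CPM in replicates 1 and 2 and 6.45 to 9.03 CPM in replicates 3 and 4 (log2 fold change -1.77 with SE 0.40, adjusted p = 0.004 in edgeR). A gene as low in control replicate 2 as rpn-6.2 was in replicates 3 and 4 could not be listed. Detoxification and antioxidant genes had 8 higher and 4 lower of 21, 38.1% and 19.05%. The intestinal metallothionein mtl-2, which binds heavy metals, had 173.1 and 109.8 CPM in controls and 189.7 and 173.4 CPM after spk-1(RNAi) in replicates 1 and 2. Across replicates 3 and 4 it had 773 and 551 CPM in controls and 692 and 757 CPM after spk-1(RNAi) (log2 fold change 2.11 with SE 0.19, adjusted p = 3.97e-05 in edgeR). The mitochondrial superoxide dismutase sod-2 was lower (log2 fold change -0.86 with SE 0.19, adjusted p = 0.00354 in edgeR) and the cytosolic sod-1 was higher (log2 fold change 0.95 with SE 0.17, adjusted p = 0.00105 in edgeR).

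Among splicing regulators, a list that holds the SR proteins SPK-1 acts on, most members were higher. Of 37 SR proteins, hnRNPs and other regulators measured, 22 were higher and 4 were lower, with a median of 0.50. The SR protein rsp-5 had 148 and 122.4 CPM in controls and 102 and 133.1 CPM after spk-1(RNAi) in replicates 1 and 2, and 482 and 389 CPM in controls and 293 and 330.2 CPM after spk-1(RNAi) in replicates 3 and 4 (log2 fold change 1.55 with SE 0.16, adjusted p = 5.81e-05 in edgeR), and rsp-3 had 241 and 85.8 CPM in controls and 248 and 160.8 CPM after spk-1(RNAi) in replicates 1 and 2. In replicates 3 and 4 it had 512 and 490.4 CPM in controls and 471 and 445 CPM after spk-1(RNAi) (log2 fold change 1.38 with SE 0.28, adjusted p = 0.00211 in edgeR). In rsp-5 the sets were separated in controls and after spk-1(RNAi) alike, and in rsp-3 control replicate 2 was lowest. rsp-1, rsp-2, rsp-6 and rsp-8 were also higher, with log2 fold changes of 0.97, 0.87, 1.19 and 1.55, and rsp-7 was lower by 0.89 on the log2 scale. Genes of nonsense-mediated decay, which removes RNAs with early stop codons, split. smg-5, smg-7 and smg-4 had log2 fold changes of -2.21, -1.01 and -0.78, and smg-6 had 1.11. smg-5 rests on 1 intron and on 1.23 to 14.4 CPM. A gene as low in control replicate 2 as smg-5 was in replicates 3 and 4 could not be listed. The core spliceosome had 21 higher and 8 lower of 49 (15 and 2 on summed reads), led by rnp-7, of the U1 particle, with 12.198 to 27.4 CPM in replicates 1 and 2 and 86.4 to 115 CPM in replicates 3 and 4 (log2 fold change 2.15 with SE 0.20, adjusted p = 4.01e-05 in edgeR). Its lowest member was prp-4 (log2 fold change -1.08 with SE 0.18, adjusted p = 0.000761 in edgeR). spk-1 itself, whose reads depend on the RNAi, had a log2 fold change of -1.52 without a call (adjusted p = 0.247 in edgeR, and 0.0306 on reads summed by number), and its sets overlapped. Introns 6 and 7, where the excess after spk-1(RNAi) sat, differed by -0.99 and -1.22, while the other 8 introns were higher in replicates 3 and 4 by 0.22 to 2.11, and in controls alone the gene's log2 fold change was 0.69.

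Of 54 chromatin regulators measured, 18 (33.3%) were higher and 9 (16.7%) were lower, with a median of -0.04. The linker histone his-24 had 24.3 and 15.8 CPM in controls and 22.8 and 97.6 CPM after spk-1(RNAi) in replicates 1 and 2. Its levels in replicates 3 and 4 were 114.3 and 134 CPM in controls and 177.7 and 247 CPM after spk-1(RNAi) (log2 fold change 2.203 with SE 0.37, adjusted p = 0.000815 in edgeR). Control libraries and the spk-1(RNAi) library of replicate 1 formed the low end, and the spk-1(RNAi) library of replicate 2 lay between them and replicates 3 and 4. Histone H3.3 genes his-72 and his-71 had log2 fold changes of 2.03 and 1.77, and lem-2, of the inner nuclear membrane, 2.08. The methyltransferase genes met-2 and set-32 were lower (-0.99 and -1.29), set-32 on 5.18 to 12.198 CPM in replicates 1 and 2 and 2.31 to 4.50 CPM in replicates 3 and 4. A gene as low in control replicate 2 as set-32 was in replicates 3 and 4 could not be listed.

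The largest single differences were in genes with 1 listed intron. The 8 largest increases among genes whose sets did not overlap were in tag-10, cnc-7, epic-2, mag-1, clec-190, cnc-4, grsp-1 and dod-18, with log2 fold changes of 2.74 to 4.37. tag-10 had 3.55 and 9.49 CPM in controls and 5.24 and 11.8 CPM after spk-1(RNAi) in replicates 1 and 2. Replicates 3 and 4 held 116.1 and 139.1 CPM in controls and 129.5 and 172.4 CPM after spk-1(RNAi) (log2 fold change 4.37 with SE 0.31, adjusted p = 1.84e-05 in edgeR). mag-1, a core component of the exon junction complex, had 28.4 and 40.7 CPM in controls and 27.8 and 64.3 CPM after spk-1(RNAi) in replicates 1 and 2. The same gene in replicates 3 and 4 had 402 and 287 CPM in controls and 355 and 297 CPM after spk-1(RNAi) (log2 fold change 3.10 with SE 0.27, adjusted p = 3.7e-05 in edgeR). Both genes were above 100 CPM in replicates 3 and 4 and at most 64.3 CPM in the others. The 8 largest decreases were in nspc-4, T12B5.15, Y69A2AR.17, lep-5, nspc-7, nspc-1, gex-2 and F52D10.2, with log2 fold changes of -3.83 to -2.92. All 8 had a mean in replicates 3 and 4 beneath 9.49 CPM, the level of 21 reads in control replicate 2. Genes as low as that in control replicate 2 could not be listed. The ranking of decreases is therefore set in part by the rule for listing introns. The same holds for the ranking of increases, since genes that rose from beneath that level are missing. tag-10 stood at the limit, with 21 reads in control replicate 2. The nspc genes are near-identical copies and can share reads, so their values are uncertain. lep-5, a non-coding RNA of the larval to adult transition, had 6.995 and 36.1 CPM in controls and 6.45 and 82.4 CPM after spk-1(RNAi) in replicates 1 and 2. Values in replicates 3 and 4 were 3.06 and 2.74 CPM in controls and 4.73 and 1.49 CPM after spk-1(RNAi) (log2 fold change -3.32 with SE 0.76, adjusted p = 0.00428 in edgeR). It was highest in replicate 2, and replicate 1 lay nearer to replicates 3 and 4. Without replicate 2 of both treatments its log2 fold change was -1.15 (adjusted p = 0.0527 in edgeR). The spread of log2 fold changes was widest for such genes, with an SD of 1.12 over 1392 genes with 1 listed intron and 0.45 over 194 genes with 10 or more, while 44.5% and 46.4% of them were called.

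Genes with at least 4 listed introns were also looked at apart. Of 2191 such genes, 1115 were called, 50.9%. Leaving out genes whose sets overlapped, the 8 largest increases among them were in perm-2, grsp-4, lev-11, act-4, mup-2, unc-27, mlc-1 and fib-1, and the 8 largest decreases in copz-1, T05E12.6, msh-5, R09H10.5, ZK1320.2, cosa-1, prom-1 and cogc-6. This selection was made after the values of the single-intron genes were seen. The differences were uneven over introns in perm-2, at 4.25 in intron 1 and 0.50 in intron 4. In act-4 they were 3.12 in the first and second listed introns, whose ends lie 2 bases apart, and 1.23 and 0.92 in the others. The reads of the first and second were almost equal, with 860 and 861 in control replicate 1. Whether they are the same junction was not tested, and act-4 has 4 listed introns only with both counted. Of the 8 genes with the largest increases, 5 encode contractile proteins of muscle, act-4 among them. copz-1, a subunit of the COPI coat of Golgi vesicles, had 268 and 277 CPM in controls and 273 and 355 CPM after spk-1(RNAi) in replicates 1 and 2. Across replicates 3 and 4 it had 49.2 and 50.6 CPM in controls and 52.99 and 44.6 CPM after spk-1(RNAi) (log2 fold change -2.57 with SE 0.15, adjusted p = 1.13e-05 in edgeR). cogc-6, of the Golgi tethering complex, had 69.1 to 105.7 CPM in replicates 1 and 2 and 26.5 to 43.6 CPM in replicates 3 and 4 (log2 fold change -1.41 with SE 0.16, adjusted p = 9.19e-05 in edgeR). fib-1, the nucleolar fibrillarin that modifies ribosomal RNA, had 448 and 414 CPM in controls and 322 and 501 CPM after spk-1(RNAi) in replicates 1 and 2. In replicates 3 and 4 it had 1584 and 1731 CPM in controls and 1261 and 1643 CPM after spk-1(RNAi) (log2 fold change 1.88 with SE 0.19, adjusted p = 4.72e-05 in edgeR). In copz-1 the spk-1(RNAi) library of replicate 2 was the highest, and in fib-1 that of replicate 1 was the lowest.

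Introns of the same gene did not differ to the same extent. In edgeR's test of unequal intron use (diffSpliceDGE, gene level), 2725 of 4370 genes with at least 2 listed introns were called, 62.4%, and 1278 of these were not called for their summed reads. Among the 1115 called genes with 4 or more introns, 416 (37.3%) had all introns on the side of the gene. In lev-11 the log2 difference ran from 1.06 at the last intron to 2.94 at the fifth. In perm-2 it was 4.25, 2.57, 1.45 and 0.50 from the first to the last. rme-8, which was lower as a gene, had 15 of 18 introns lower, from -2.24 to 0.26. smc-3 was not called as a gene, yet its first listed intron differed by -3.89 and intron 4 by 1.23. Its first intron had 22.5 and 52.9 CPM in controls and 24.99 and 41.03 CPM after spk-1(RNAi) in replicates 1 and 2, and 1.76 and 2.46 CPM in controls and 1.44 and 1.60 CPM after spk-1(RNAi) in replicates 3 and 4. The rule for listing applies to each intron, and an intron beneath 9.49 CPM in control replicate 2 could not be listed. Large differences are therefore seen more fully where introns were lower in replicates 3 and 4. In fln-1 (filamin), with a log2 fold change of 0.07 over 23 introns, single introns ran from -2.41 to 1.52.

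**Figure D4:**
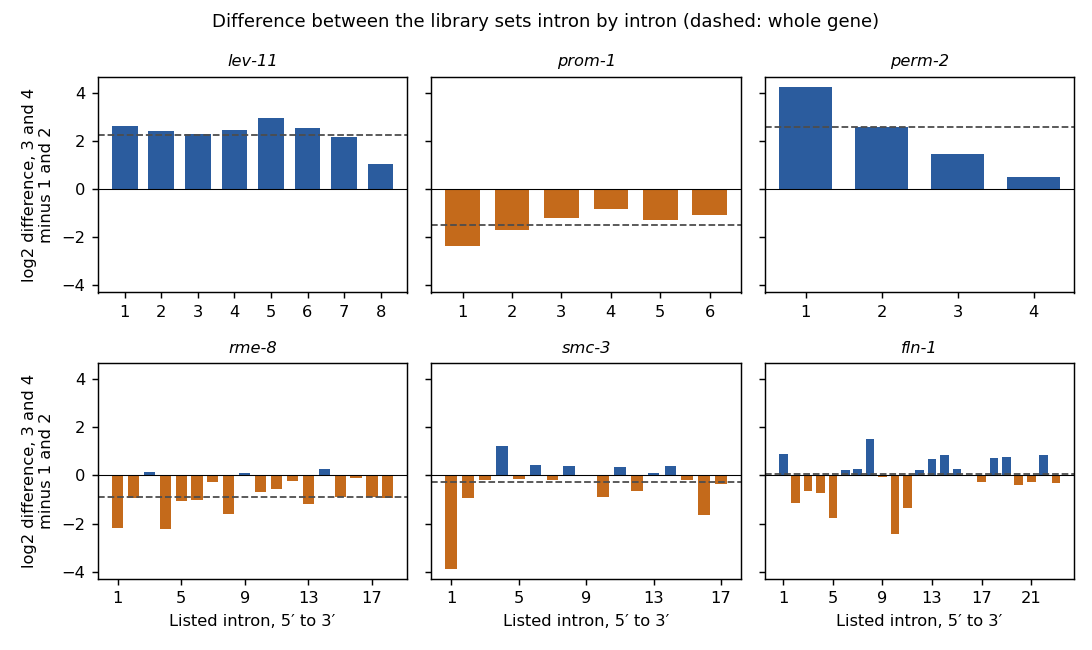
Bars give the log2 difference between replicates 3 and 4 and replicates 1 and 2 (mean log2 of CPM + 0.5 of 4 libraries each) at each listed intron in 5′ to 3′ order, and dashed lines the log2 fold change of the whole gene. All bars of lev-11 are above 0 and all of prom-1 beneath it, those of perm-2 decline from 4.25 to 0.50, and smc-3 and fln-1 have bars on both sides.

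Deviations of introns from their gene were larger between the sets than between the treatments. Over 2516 introns with at least 50 reads in every library, in 503 genes with at least 4 such introns, the SD of the deviation was 0.68 for the library sets and 0.16 for the treatment. The deviation measured in controls correlated with that measured after spk-1(RNAi) at 0.89 across introns, which share their gene and the libraries' numbers. Between single libraries, the SD within genes was 0.70 to 0.84 across sets, 0.17 to 0.65 within replicates 1 and 2 and 0.26 to 0.37 within replicates 3 and 4. Over 5 bins of relative position, the median deviation of 13447 introns was -0.04 to 0.01, and the SD was 0.80 in the first bin and 0.60 to 0.68 in the others. Medians over 7 bins of intron length were -0.04 to 0.02, and over 7 bins of the length of the following exon -0.03 to 0.04. Base composition of the introns and exons was not analysed here.

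A 5′ to 3′ index per library differed by less than the spread within the sets. It is the median over 1023 genes with at least 6 listed introns of the log2 ratio of reads over the first 2 introns to reads over the last 2, each with 1 read added. The index was -0.16 and 0.14 in control replicates 1 and 2, -0.12 and -0.29 in spk-1(RNAi) replicates 1 and 2, -0.37 and -0.04 in control replicates 3 and 4 and -0.08 and -0.03 in spk-1(RNAi) replicates 3 and 4. The sets overlapped, and their means were -0.11 ± 0.18 and -0.13 ± 0.16 (SD, n = 4), with p = 0.971 in a 2-sided exact permutation test, for which 0.0286 is the smallest value possible.

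The shares of introns at shared splice sites differed at few sites. Where introns have a donor or acceptor in common they compete for it, and the share of the longest intron in the reads at the site gives the balance apart from the gene's level. Introns along a gene also differed unequally between the sets, in 62.4% of the genes tested. Whether a share differed through splicing or through the counting of single junctions was not tested. Of 150 shared sites, 10 (6.67%) were called between the sets in edgeR's diffSpliceDGE, 6 with a higher share of the longest intron in replicates 3 and 4 and 4 with a lower one, and 23 had an unadjusted p under 0.05. At 21 sites (14%) the shares did not overlap. The called sites were 4 alternative acceptors, 2 alternative donors and 4 sites classed as exon skipping. Among the last are both the donor and the acceptor of the same junction, from rpl-41.1 to its near-identical neighbour rpl-41.2. There the stretch classed as an exon runs from copy to copy, so it is not an exon of a single gene. On reads summed by number, 3 of them (2%) were called, those of rpl-41.1 and vit-2, and with the replicate number as a block 19 sites (12.7%) were called.

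At the donor of pptr-2, a regulatory subunit of protein phosphatase 2A, the acceptors lie 12 nt apart (chromosome V, 11029253 to 11029303 for the longer intron in ce10, the build of the files). The longer intron took 50.7% and 53.8% of reads in controls and 57.8% and 65.1% after spk-1(RNAi) in replicates 1 and 2, and 86.9% and 85.2% in controls and 79.6% and 80.7% after spk-1(RNAi) in replicates 3 and 4. Every library of replicates 3 and 4 was above every other, with means of 56.8% ± 6.196 and 83.1% ± 3.53 (SD, n = 4, adjusted p = 0.0255 in edgeR). taf-10, a subunit of the general transcription factor TFIID, has acceptors 9 nt apart (chromosome V, 4687175 to 4687225). The longer intron took 16.3% and 16.7% of reads in controls and 13.2% and 12.4% after spk-1(RNAi) in replicates 1 and 2, and 29.1% and 38.3% in controls and 37.3% and 26.9% after spk-1(RNAi) in replicates 3 and 4, with means of 14.6% ± 2.15 and 32.9% ± 5.72 (SD, n = 4, adjusted p = 0.00189 in edgeR). In F45E12.5 (chromosome II, 7309202 to 7309948) acceptors 594 nt apart were used, and the longer intron took 47.5% and 57.1% of reads in controls and 43.1% and 45.7% after spk-1(RNAi) in replicates 1 and 2, and 81.7% and 72.1% in controls and 73.8% and 76.2% after spk-1(RNAi) in replicates 3 and 4, with means of 48.4% ± 6.13 and 75.96% ± 4.18 (SD, n = 4, adjusted p = 0.00458 in edgeR). At all 3 sites the share was higher in replicates 3 and 4 within each treatment.

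At the acceptor of ret-1, the reticulon of the worm (chromosome V, 14830303 to 14833619), the longer intron was used less in replicates 3 and 4. It took 65.4% and 67.4% of reads in controls and 68.9% and 75% after spk-1(RNAi) in replicates 1 and 2, and 41.6% and 37.9% in controls and 48.6% and 45.2% after spk-1(RNAi) in replicates 3 and 4, with means of 69.2% ± 4.15 and 43.3% ± 4.58 (SD, n = 4, adjusted p = 0.0255 in edgeR), with donors 2216 nt apart. let-391 (chromosome I, 6038460 to 6038538) has donors 18 nt apart, and the longer intron took 30.8% and 30.4% of reads in controls and 31.2% and 10.3% after spk-1(RNAi) in replicates 1 and 2, and 7.17% and 5.31% in controls and 13.2% and 5.94% after spk-1(RNAi) in replicates 3 and 4, with means of 25.7% ± 10.2 and 7.90% ± 3.60 (SD, n = 4, adjusted p = 0.0239 in edgeR). Its spk-1(RNAi) library of replicate 2 lay among the values of the other set, at 58 reads. In mtm-3, a myotubularin phosphatase, the longer intron (chromosome III, 3790821 to 3792040) skips an exon of 335 nt. Its share was 25.5% and 19.8% of reads in controls and 37.1% and 41.6% after spk-1(RNAi) in replicates 1 and 2, and 43.4% and 45.3% in controls and 68.9% and 74.1% after spk-1(RNAi) in replicates 3 and 4, with means of 31.01% ± 10.1 and 57.9% ± 15.9 (SD, n = 4, adjusted p = 0.00829 in edgeR). Here the treatment moved the site as well, and in each number the spk-1(RNAi) library had the higher share.

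The donor of vit-2 was read deeply, with at least 4416 reads in every library. Its longer intron (chromosome X, 5105448 to 5105660) ends beyond the usual acceptor and took 0.349% and 3.06% of reads in controls and 0.792% and 1.52% after spk-1(RNAi) in replicates 1 and 2, and 7.02% and 6.50% in controls and 5.37% and 7.68% after spk-1(RNAi) in replicates 3 and 4, with means of 1.43% ± 1.19 and 6.64% ± 0.974 (SD, n = 4, adjusted p = 0.000334 in edgeR). The usual short intron thus held over 90% of reads at the site in all libraries. At rpl-41.1 (chromosome I) the longer intron, 4789279 to 4790413, runs from the donor of rpl-41.1 to the acceptor of its near-identical neighbour rpl-41.2. It took 13.3% and 48.02% of reads in controls and 16.9% and 56.995% after spk-1(RNAi) in replicates 1 and 2, and 0.695% and 0.829% in controls and 0.633% and 1.03% after spk-1(RNAi) in replicates 3 and 4, with means of 33.8% ± 21.97 and 0.798% ± 0.177 (SD, n = 4, adjusted p = 0.000181 in edgeR), and read assignment between the copies makes it uncertain. The remaining called sites were the acceptor of the same junction and the acceptor of an exon of rps-22 (difference 2.40 percentage points). Of all 27 alternative donor sites, 9 had a higher share of the longer intron in replicates 3 and 4, with a median difference of -5.09 percentage points, whereas 48 alternative acceptors did, with a median of -0.20, and 2 and 4 sites of these kinds were called.

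**Figure D5:**
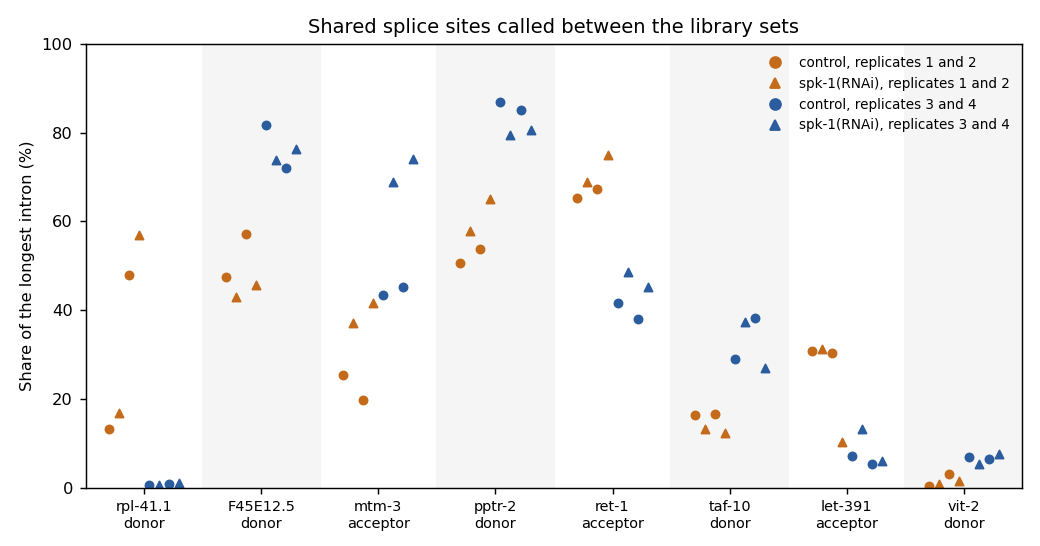
Share of the longest intron (in percent of reads at the site) at the 8 called sites with the largest difference between the sets, in each library (orange, replicates 1 and 2, blue, replicates 3 and 4, circles, control, triangles, spk-1(RNAi)). Blue points lie above orange ones at F45E12.5, mtm-3, pptr-2, taf-10 and vit-2 and beneath them at rpl-41.1 and ret-1, while 1 orange point of let-391, at 10.3%, lies among the blue.

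The response to spk-1(RNAi) was compared between the sets by a test of the interaction. No gene of 5762 and no site of 150 was called (0 of each in edgeR), with 1.80% of genes and 2 sites at an unadjusted p under 0.05, and DESeq2 called 0 genes with 121 at an unadjusted p under 0.05. At the acceptor of the alternative exon of tos-1, a gene used as a reporter of splicing factors, the exon-skipping share was 25.4% and 20.4% of reads in controls and 54.95% and 59.9% after spk-1(RNAi) in replicates 1 and 2, and 15.4% and 28.9% in controls and 50.4% and 45.1% after spk-1(RNAi) in replicates 3 and 4. The spk-1(RNAi) libraries were higher in each number, by 34.5 percentage points on average in replicates 1 and 2 and by 25.6 in replicates 3 and 4. The sets themselves did not differ in a way the test called there (adjusted p = 0.761 in edgeR), and their shares overlapped. For mtm-3 the treatment difference was 16.7 percentage points in replicates 1 and 2 and 27.2 in replicates 3 and 4. Within the sets 2 libraries stand against 2, so a p over the threshold does not show that the responses were alike.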

How the data were processed

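Junction reads were taken from 1 deposited table of the authors, in which each intron has a raw read count for each of the 8 libraries, not normalized, per the file headers. The table also held ratio columns of the authors, a fold of treated over control reads, used here only to match 2 read columns, whose headers alone did not tell them apart, to their libraries. Per the submitters' processing notes, the build was ce10 and the tools named were Bowtie2 2.0.0 and TopHat 1.4.1, with no role given. No column of other samples was left aside. Of the 20349 introns listed, 25 appeared on both strands and were kept once, on the strand of the annotated gene where that matched.

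Counts were summed over the introns of each gene and fitted in edgeR 4.0.16 (R 4.3.3) with the quasi-likelihood test, TMM scaling, library set and treatment as terms, and a Benjamini-Hochberg adjusted p under 0.05. The filter on low counts removed 0 genes. Intron use within genes and at shared sites was tested with diffSpliceDGE. DESeq2 1.42.0 and limma 3.58.1 served as alternatives, beside scaling, thinning, read minimums, replicate blocks, each treatment alone and left-out libraries. The main gene fit and the test at shared sites were tried on simulated data first, and the other steps were not.

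In the check of pairing, same-numbered libraries deviated together from their group means (correlations of 0.69 to 0.88). The main fit held no term for the number, so its p-values treat the libraries as independent. Pairing by number entered only the alternative fits, with a replicate block or on reads summed by number. Different numbers correlated at 0.24 and 0.35 within replicates 1 and 2, at 0.69 and 0.70 within replicates 3 and 4 and at -0.71 to -0.54 between the sets, so these correlations follow the set as well as the number. The genes named by rule were the 8 largest non-overlapping changes in each direction, and in each list the largest called member each way and the member with the highest mean CPM. Further genes were picked with their values in view. The library sets, gene lists and tests were chosen with earlier results of these data known. Precision of a count is set by depth, which was 1821717 to 47299659 reads, and covers counting error only.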

Additional observations from a re-analysis of the deposited data

Results flagged for a closer look

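Among 218 sets of 4 libraries examined (the named genes, the called sites and the index), 18 held a library that stood further from the other 3 than Dixon's 95% critical value of 0.829 allows, and chance gives about 1 in 20 such sets.

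In replicates 1 and 2, the spk-1(RNAi) library of replicate 2 stood apart most often. It was high for col-143 (543 CPM, the others 175.7 to 238), perm-2 (3058 CPM, the others 1326 to 1614), his-24 (97.6 CPM, the others 15.8 to 24.3) and copz-1 (355 CPM, the others 268 to 277). It was also high for the muscle genes mup-2 (194 CPM, the others 86.5 to 96.2), unc-27 (618 CPM, the others 221 to 286) and mlc-1 (288 CPM, the others 163 to 181.6). For spk-1, the target of the RNAi, it held 61497 CPM beside 382 to 5297 CPM. At the let-391 acceptor, its share of the longest intron was 10.3%, beside 30.4% to 31.2% in the others. In all of these genes but copz-1 and spk-1, and at the let-391 site, the library lay towards the values of replicates 3 and 4.

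Control replicate 2 was low for vit-6 (8068 CPM, the others 10853 to 11090.4), pcca-1 (82.7 CPM, the others 141.01 to 151.9) and sip-1 (534 CPM, the others 1130.4 to 1234), and high for msh-5 (77.3 CPM, the others 38.8 to 43.9).

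In replicates 3 and 4, the spk-1(RNAi) library of replicate 4 was high for gex-2 (4.96 CPM, the others 0.704 to 1.41) and grsp-1 (115 CPM, the others 88.6 to 92.8) and low for unc-119 (19.1 CPM, the others 26.5 to 27.3). Control replicate 4 was high for set-32 (4.50 CPM, the others 2.31 to 2.48). Control replicate 3 had a 5′ to 3′ index of -0.37, beside -0.08 to -0.03 in the others.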

How the results depend on the processing

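Beside 2899 genes called between the sets in edgeR, 1826 were called on reads summed by replicate number, 1613 in controls alone, 1036 after spk-1(RNAi) alone and 1115 of 2191 with at least 4 introns, the last chosen after seeing the data. Leaving out replicate 3 of both treatments gave 1630 and replicate 4 gave 1641, and all settings that left out libraries gave 1630 to 3447. With the replicate block the counts were 3553 as a fixed and 2347 as a random term. Beside 10 called sites, the block gave 19, introns with at least 50 reads 5 of 19, summed reads 3, controls alone 3, spk-1(RNAi) alone 3, and leaving out 1 library 6 to 14, with 6 without control replicate 3, control replicate 4 or spk-1(RNAi) replicate 4. Beside 2725 genes with unequal introns, 1036 of 1806 were called with at least 50 reads, 1596 in controls, 1156 after spk-1(RNAi) and 2225 to 2741 without 1 library. The interaction called 1 gene, kbp-3, with the block, beside 0. The index difference was -0.08 to 0.06 without 1 library. Fits with fewer libraries or introns test with less data by construction, and the cause of the other shifts was not tested. Of 2363 alternative values for 100 named genes, 2207 kept direction and side of the threshold, 9 uncalled values changed sign (spk-1 had 0.69 in controls), 28 gained the call, 1 reversed and the rest lost the call. The reversal was of rpl-41.2, with a log2 fold change of 0.70 without replicate 2 of both treatments. For 8 sites, 91 values kept both and 32 lost the call. Introns scarce in control replicate 2 are not listed, which limits what can be seen at low levels.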
